A study of Mus musculus with 6 samples.

Results

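The cellular stress response was followed in outer hair cells of the mouse cochlea with and without the transcription factor Insm1. Its 10 genes were a list of symbols, looked up among the 23337 of the count files, and all 10 were found. An integrated stress arm held 5 genes (Atf4, Ddit3, Trib3, Asns and Chac1), and an endoplasmic reticulum (ER) chaperone arm held the other 5 (Xbp1, Hspa5, Hsp90b1, Dnajb9 and Herpud1). The cells came from the organ of Corti at E18.5, shortly before birth, and were sorted by fluorescence for an Insm1 allele carrying GFP and Cre, which the protocol gives for both groups. The groups were 3 Insm1-Het (heterozygous) libraries and 3 Insm1-KO (knockout) libraries. The labels do not give the strain, sex, litter, number of animals per library or the deleted part of Insm1. P-values therefore measure only the spread between these libraries, which may be technical.

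Cells that fold many secreted and membrane proteins watch the load in the ER through sensors in its membrane. One branch phosphorylates the initiation factor eIF2, which lowers general translation while the mRNA of Atf4 is translated more, and Atf4 then switches on genes for amino acid supply and, under lasting stress, Ddit3, Trib3 and Chac1. The other branches run through Xbp1, whose mRNA is spliced in the cytoplasm, and through Atf6, and they raise chaperones such as Hspa5 and Hsp90b1. Because Atf4 is controlled largely by translation and Xbp1 by splicing, a count of reads per gene does not measure the activity of either factor. Hair cells make large amounts of membrane and bundle proteins, and ER stress is known as one route to their loss.

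The targeted gene itself was counted at 109.3, 116.2 and 69.2 CPM (reads scaled to a common library total) in the Het libraries and at 78.7, 60.3 and 18.7 CPM in the KO libraries. KO replicate 1 lay above Het replicate 3, so Insm1 RNA checks the genotype labels only in part. The 3 Het libraries held 10721902 to 12427039 counts and the 3 KO libraries 7705177 to 9748629, so depth moved with genotype, and its part in the results was not tested. KO replicate 3 stood apart, with a Pearson r of log2 CPM over genes of 0.746 to 0.780 with the other libraries, where the other pairs had 0.787 to 0.841. It was the highest or lowest library for 6 of the 8 tested members and for 51.3% of all 11714 tested genes. The summed level of 8 general hair cell markers, among them Myo6 and Myo7a, was 9426 to 9747 CPM in the Het group and 9363 to 10920.0 CPM in the KO group. Fewer cells of a type and less RNA per cell cannot be told apart in such bulk samples.

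The promoters of the 10 genes were searched, within a fixed window, for the exact letters of elements through which the 2 arms are known to act. RefSeq windows on GRCm38.p6, from 250 bases before to 50 bases after the gene start, were matched for all 10 genes and searched on both strands for 4 motifs. The ER stress response element bound by Atf6, CCAAT followed after any 9 bases by CCACG, was in 0.119% of all 32851 windows and in those of Hspa5 and, at 2 places, Hsp90b1. Its second form, ATTGG followed after any 1 base by CCACG, was in 0.0365% of windows and in that of Herpud1. The pattern TGATGNAA, the core of the element bound by Atf4 with C/EBP partners, was in 3.97% of windows and in those of Asns, Trib3, Chac1 and Herpud1. No match overlapped another. The start is that of RefSeq, which lies apart from the GENCODE M21 gene start used for the coordinates given with the genes below. It lies 120 bases downstream for Hspa5, 65 for Hsp90b1, 45 for Asns and 13 for Chac1, and 28 bases upstream for Trib3 and 9 for Herpud1. The matches of Hspa5 and Asns therefore fall inside the gene as GENCODE draws it, and that of Trib3 falls before its GENCODE start. The windows of Atf4, Ddit3, Xbp1 and Dnajb9 held none of these letters, and no member window held TGACGTGG, the core of the unfolded protein response element, which was in 0.676% of windows. The RefSeq start of Dnajb9 lies 258 bases downstream of its GENCODE start, so its window lay wholly inside the gene as GENCODE draws it. For Dnajb9 the absence therefore says nothing about the bases before the GENCODE start. The 30 bases around each match are shown 5′ to 3′ on the strand of the gene, with the match in capitals, to set the chaperone element beside the Atf4 element.
Hspa5, first form (chr2:34772020-34772049, plus strand, match 65 to 47 bases before the RefSeq start): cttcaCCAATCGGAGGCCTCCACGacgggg
Hsp90b1, first form (chr10:86705632-86705661, minus strand, match 212 to 194 bases before the RefSeq start): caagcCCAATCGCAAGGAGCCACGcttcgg
Hsp90b1, first form on the opposite strand (chr10:86705527-86705556, minus strand, match 107 to 89 bases before the RefSeq start): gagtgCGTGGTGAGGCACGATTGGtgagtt
Herpud1, second form (chr8:94386368-94386397, plus strand, match 52 to 42 bases before the RefSeq start): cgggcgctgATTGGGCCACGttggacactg
Herpud1, Atf4 core on the opposite strand (chr8:94386306-94386335, plus strand, match 112 to 105 bases before the RefSeq start): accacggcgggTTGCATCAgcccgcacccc
Asns, Atf4 core (chr6:7693214-7693243, minus strand, match 23 to 16 bases before the RefSeq start): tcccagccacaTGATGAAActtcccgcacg
Chac1, Atf4 core on the opposite strand (chr2:119351038-119351067, plus strand, match 193 to 186 bases before the RefSeq start): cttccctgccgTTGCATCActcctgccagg
Trib3, Atf4 core on the opposite strand (chr2:152344028-152344057, minus strand, match at bases 15 to 22 counted from the RefSeq start): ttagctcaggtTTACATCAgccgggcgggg
Herpud1 was thus the 1 member whose window held both kinds of element, at places that do not overlap. A match is a description of the letters and not evidence of binding. The lack of a match does not show that a gene lacks such an element, since only exact letters within these windows were searched.

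The members covered a wide range of levels. Per length of the merged exons, in RPKM (CPM per kilobase), Hsp90b1 was highest, with 274.7 to 465.8 RPKM over the 6 libraries, and Hspa5 followed with 95.6 to 220.2 RPKM. Atf4 came next with 27.8 to 76.4 RPKM, and these 3 ranges did not overlap. Xbp1 lay at 8.69 to 31.7 RPKM, below Atf4 in each of the 6 libraries although their ranges met. Asns (4.11 to 22.9 RPKM), Dnajb9 (6.65 to 12.4), Herpud1 (0.286 to 10.8) and Ddit3 (1.71 to 9.19) had overlapping ranges. Among them Dnajb9 lay above Ddit3 in each of the 6 libraries, most narrowly in Het replicate 2 (9.222 and 9.185 RPKM). No other pair of these genes kept its order in all libraries. Trib3 and Chac1 were near the limit of counting, at up to 4.94 and 2.15 RPKM. By mean level both chaperones were therefore the most abundant members, and the stress effectors Trib3 and Chac1 the least, in either genotype. These levels depend on the GENCODE M21 exon lengths used, since the annotation behind the counts is not given in the sources used here.

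**Figure D1:**
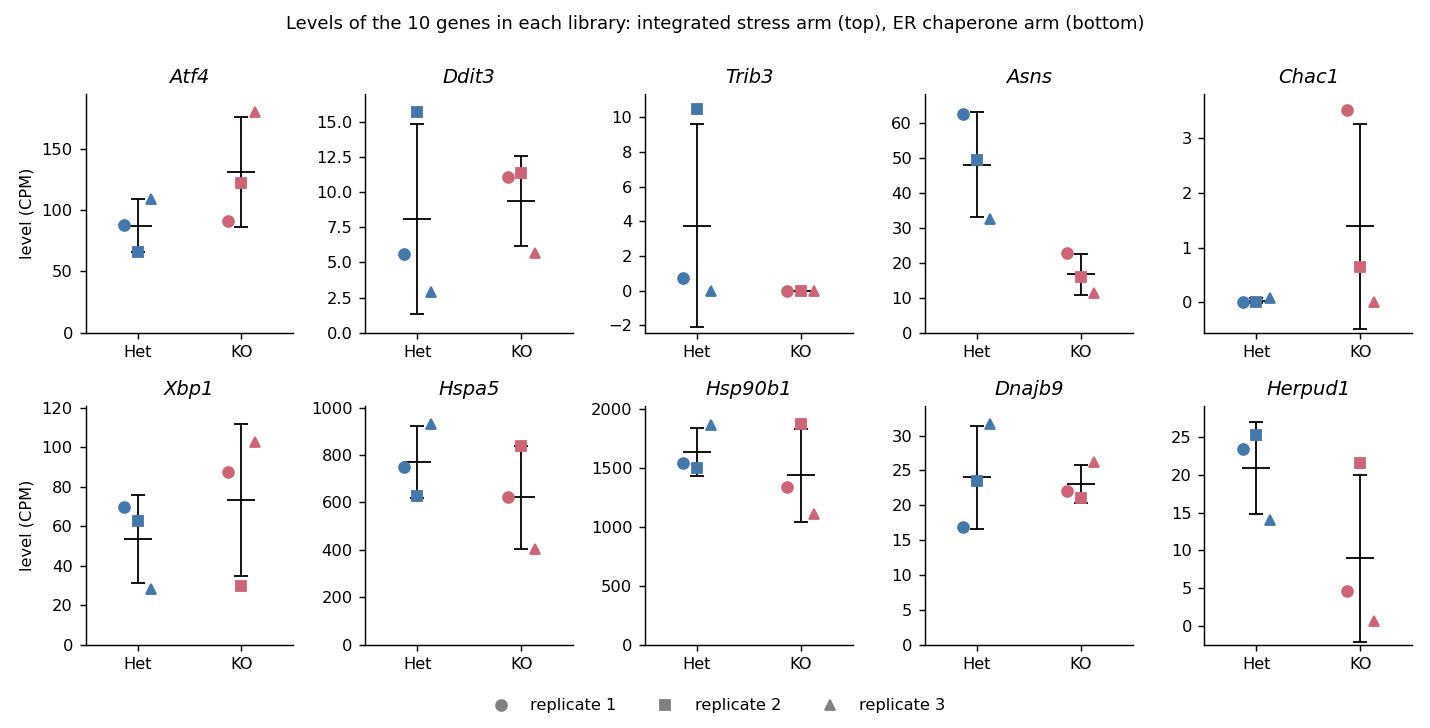
Level of each of the 10 genes in CPM (y axis, linear, 1 scale per gene) in the 3 Insm1-Het (blue) and 3 Insm1-KO (red) libraries; symbols are replicates, bars the mean and SD of 3 libraries. Asns is the 1 gene whose KO libraries, at 11.2 to 23.0 CPM, all lie below its Het libraries, at 32.5 to 62.6 CPM.

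In the contrast of genotypes, 0 of the 8 members with enough counts to be tested passed the edgeR quasi-likelihood test, adjusted by Benjamini-Hochberg over all tested genes, and that test called 0% of all 11714 genes. DESeq2 and limma-voom also passed 0 members. At an unadjusted p under 0.05 the edgeR test held 1 member, Asns, where 5.34% of all tested genes reached that level. Trib3 and Chac1 fell below the filter on low counts and are given as counts.

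Asns encodes asparagine synthetase, which makes asparagine and is a classical Atf4 target (chromosome 6, 7675169 to 7693254 on the minus strand of GRCm38, protein coding, 13 merged exons). It was counted at 62.6, 49.4 and 32.5 CPM in Het replicates 1, 2 and 3 and at 23.0, 16.0 and 11.2 CPM in KO replicates 1, 2 and 3. All 3 KO libraries were below all 3 Het libraries, as was the case for 6.10% of all tested genes. The means were 48.2 ± 15.1 CPM in the Het group and 16.8 ± 5.89 CPM in the KO group (SD, n = 3), and the estimate on the log2 scale was -1.52 (SE 0.588, 95% interval -2.79 to -0.26), or 0.348 of the Het level. The difference did not pass over all genes (edgeR adjusted p = 0.92), and its unadjusted p in the same fit was 0.0218. When each library was left out in turn, the estimate ran from -1.82 without KO replicate 1 to -1.29 without Het replicate 1, and it was -1.30 without KO replicate 3. Of all tested genes, 10.6% had a larger absolute log2 fold change.

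Atf4, the transcription factor at the head of the arm (chromosome 15, 80255184 to 80257541 on the plus strand), was counted at 87.5, 65.7 and 109.1 CPM in the Het libraries and at 91.1, 122.3 and 180.2 CPM in the KO libraries. KO replicate 3 was the highest, and KO replicate 1 lay below Het replicate 3, so the groups overlapped. The means were 87.4 ± 21.7 and 131.2 ± 45.2 CPM (SD, n = 3), with a log2 fold change of 0.59 (SE 0.361, 95% interval -0.19 to 1.36; edgeR adjusted p = 0.938). Without KO replicate 3 the log2 fold change was 0.30. The estimates for Atf4 and for Asns thus had opposite signs, and neither passed.

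The levels of this factor and of its target can be set side by side within each library. Per length, Atf4 stood at 1.62, 1.54 and 3.89 times the level of Asns in the Het libraries and at 4.60, 8.85 and 18.6 times in the KO libraries. The ratio was higher in each KO library than in any Het library, on a comparison chosen after the values were seen. It carries the Asns difference in it and is no separate result.

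**Figure D2:**
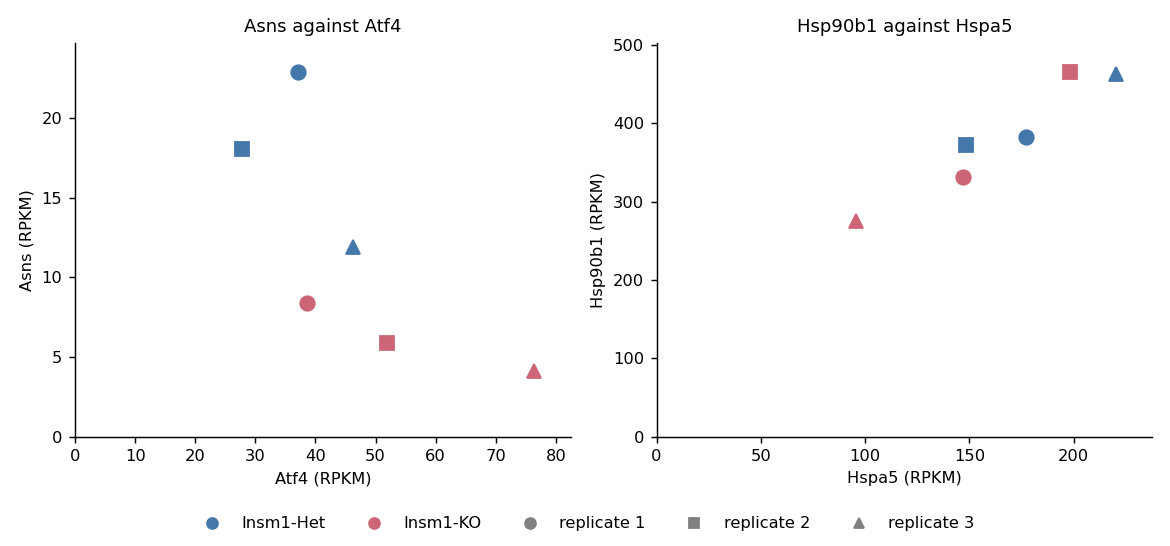
Asns against Atf4 (left) and Hsp90b1 against Hspa5 (right), each axis in RPKM, with 1 point per library, colour for genotype and symbol for replicate. The library with the most Atf4, KO replicate 3 at 76.4 RPKM, has the least Asns at 4.11 RPKM, while the chaperone pair runs from KO replicate 3 (95.6 and 274.7 RPKM) up to Het replicate 3 and KO replicate 2.

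Ddit3 encodes CHOP, a transcription factor that favours cell death under lasting stress (chromosome 10, 127290774 to 127296288 on the plus strand). It was counted at 5.62, 15.7 and 2.92 CPM in the Het group and 11.1, 11.4 and 5.68 CPM in the KO group. The highest and the lowest value were both from Het libraries, and the KO values fell between them. The log2 fold change of 0.21 had a 95% interval from -2.09 to 2.51, too wide to show or exclude a change of several fold, and it was -0.18 without Het replicate 3 and 1.13 without Het replicate 2. In the annotation 68 bases of its exons overlap Mars on the opposite strand and 13 bases overlap Gm4189, and the strand setting of the counts is not given in the sources used here.

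Trib3, a pseudokinase that dampens Atf4 and Akt signalling (chromosome 2, 152337422 to 152344032 on the minus strand), had 9, 112 and 0 counts in Het replicates 1, 2 and 3 and 0 counts in every KO library. A count of 0 allows up to 0.32, 0.391 and 0.334 CPM in KO replicates 1, 2 and 3, for counting error only. The Het mean was at least 32.4-fold higher than a floor of 3 counts over the KO group, and at least 3.18-fold without Het replicate 2, which held 92.6% of the 121 Het counts. Trib3 RNA was therefore seen mainly in 1 library, which also had the highest Ddit3 level.

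Chac1, an enzyme that breaks down glutathione (chromosome 2, 119351229 to 119354381 on the plus strand), had 0, 0 and 1 counts in the Het group and 33, 5 and 0 counts in the KO group. KO replicate 1 held 86.8% of the 38 KO counts. Per depth the summed counts were 52.0 times higher in KO, with an exact 95% interval from 8.79 to 2110.0 that covers counting error only and not the spread between libraries. Trib3 and Chac1, both late effectors of Atf4 and Ddit3, were thus counted above a few reads in different libraries of different genotypes.

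Among the ER chaperones, Hspa5, the Hsp70 chaperone BiP that binds unfolded chains and holds the ER stress sensors inactive (chromosome 2, 34771970 to 34777547 on the plus strand), was counted at 749.9, 628.3 and 931.4 CPM in the Het group and at 621.7, 838.0 and 404.4 CPM in the KO group. The groups overlapped, and KO replicate 3 was lowest. The means were 769.9 ± 152.5 and 621.4 ± 216.8 CPM (SD, n = 3), with a log2 fold change of -0.31 (SE 0.257, 95% interval -0.86 to 0.24; edgeR adjusted p = 0.979). Its size depended on single libraries, since the log2 fold change was -0.07 without KO replicate 3, -0.14 without Het replicate 3 and -0.58 without KO replicate 2.

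Hsp90b1, the ER form of Hsp90, also called Grp94, which folds integrins and Toll-like receptors (chromosome 10, 86690209 to 86705509 on the minus strand), was at 1544, 1501 and 1869 CPM in the Het group and at 1338, 1878 and 1108 CPM in the KO group. It had its lowest value in the same library as Hspa5, and its highest in KO replicate 2. Its log2 fold change was -0.18 (SE 0.2, 95% interval -0.61 to 0.24), and it was -0.02 without KO replicate 3, -0.07 without Het replicate 3 and -0.41 without KO replicate 2. Per length Hsp90b1 stood at 2.10 to 2.51 times the level of Hspa5 in the Het group and at 2.26, 2.35 and 2.87 times in KO replicates 1, 2 and 3, so the balance of both chaperones overlapped between genotypes. Exons of Hsp90b1 overlap the pseudogene 1810014B01Rik over 415 bases, Gm25745 over 133 bases and Gm15344 over 84 bases, so its counts are uncertain to that extent.

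Xbp1, the factor that is spliced under ER stress and then drives chaperone and degradation genes (chromosome 11, 5520659 to 5525893 on the plus strand), was at 69.9, 62.5 and 28.2 CPM in the Het group and at 87.4, 29.9 and 102.9 CPM in the KO group. KO replicates 1 and 3 were above all Het libraries, and KO replicate 2 was close to the lowest of them. The log2 fold change was 0.46 (SE 0.527, 95% interval -0.68 to 1.59), and it was 0.14 without KO replicate 3, 0.16 without Het replicate 3, 0.31 without KO replicate 1, 0.70 without Het replicate 1 and 0.84 without KO replicate 2. The counts do not separate spliced from unspliced Xbp1 mRNA.

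Herpud1, a membrane protein that organises ER-associated degradation (chromosome 8, 94386438 to 94395377 on the plus strand), was at 23.4, 25.3 and 14.0 CPM in the Het group and at 4.59, 21.5 and 0.668 CPM in the KO group. KO replicate 3 held 6 counts and KO replicate 1 held 43, while KO replicate 2 lay within the Het range. The log2 fold change of -1.23 (SE 1.05) had a 95% interval from -3.48 to 1.03. It was -0.67 without KO replicate 3 and -2.98 without KO replicate 2, so the KO libraries disagreed on this gene. The estimate was -2.35 by limma-voom and -2.26 with the replicate number as a block, and it did not pass in either. Its highest level was 37.9 times its lowest over the 6 libraries, against 1.70 to 5.57 times for the other 7.

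Dnajb9, the J-domain partner of Hspa5 known as ERdj4 (chromosome 12, 44205559 to 44210326 on the minus strand), was at 16.9, 23.5 and 31.7 CPM in the Het group and at 22.0, 21.0 and 26.2 CPM in the KO group. The 3 KO values lay inside the Het range, and 14 bases of its exons overlap the microRNA gene Mir5627. Its estimate was -0.06 on the log2 scale (95% interval -1.43 to 1.31), and the sign turned without Het replicate 3 (0.20) or without KO replicate 2 (0.014).

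**Figure D3:**
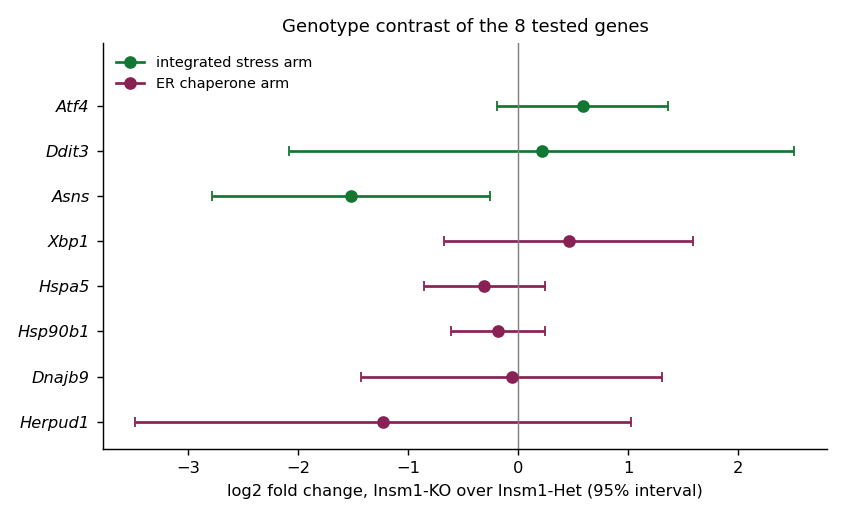
Log2 fold change of Insm1-KO over Insm1-Het (x axis) with 95% intervals from edgeR's fit for the 8 tested genes, green for the integrated stress arm and purple for the ER chaperone arm. The interval of Asns, from -2.79 to -0.26, is the 1 that does not include 0, and it is not adjusted for the number of genes.

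Set against each other per library, the arms differed by amounts that overlapped between genotypes. The mean log2 CPM of the 5 integrated stress genes was 2.50, 3.34 and 1.84 in Het replicates 1, 2 and 3 and 2.82, 2.38 and 1.77 in KO replicates 1, 2 and 3. That of the 5 ER chaperone genes was 6.99, 7.01 and 6.88 in the Het group and 6.57, 6.87 and 5.99 in the KO group. The ER mean was thus lower in each KO library than in any Het library, with 6.869 and 6.876 as the closest pair, while the integrated stress means overlapped. That separation rested on Herpud1: over the other 4 genes, an alternative added after the values were seen, the means were 7.593, 7.596 and 7.639 in the Het group and 7.648, 7.475 and 7.545 in the KO group, and KO replicate 1 was the highest of all 6. The lowest ER mean, in KO replicate 3, came with 3 members at their lowest (Hspa5, Hsp90b1 and Herpud1) and with Xbp1 at its highest. The difference of the arms, integrated stress minus ER chaperone, was -4.40 ± 0.688 in the Het group and -4.16 ± 0.373 in the KO group (SD, n = 3). The genotypes differed in it by 0.24, less than the spread between replicates of 0.553, and the sign turned when Xbp1 and Herpud1, which are not chaperones, were left out of the ER arm (-0.046), or Herpud1 alone (-0.19). The integrated stress mean also rests on Trib3 and Chac1, whose log2 CPM at 0 counts is set by the prior count of 2. Both had 0 counts in KO replicate 3, the library with the lowest mean of that arm. Over only the members past the filter, the genotypes differed in the difference of the arms by 0.32. For 1 pair of genes across the arms, Atf4 per length stood at 0.209, 0.187 and 0.21 times the level of Hspa5 in the Het libraries. In the KO libraries this ratio was 0.263, 0.262 and 0.799, higher in each than in any Het library. Each of these genes alone overlapped between genotypes, and how many other pairs separate so was not counted. The arm means and this ratio are descriptions of chosen genes and carry no test.

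**Figure D4:**
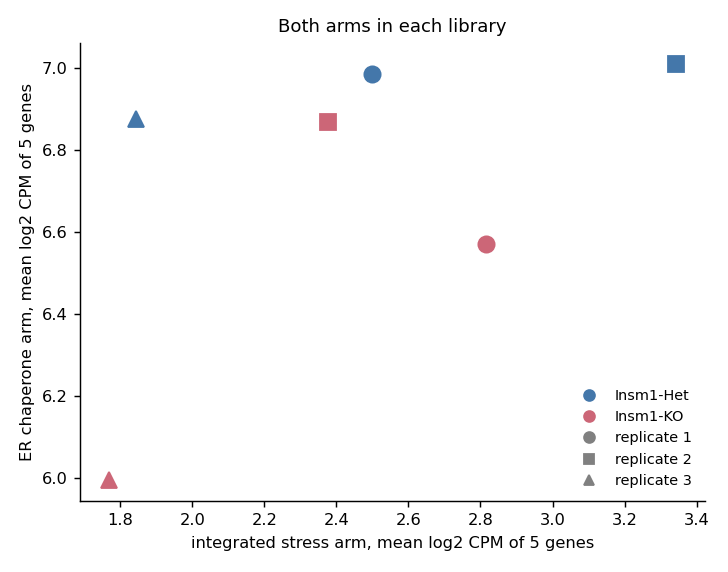
Mean log2 CPM of the 5 ER chaperone genes (y axis) against that of the 5 integrated stress genes (x axis), 1 point per library, blue for Insm1-Het and red for Insm1-KO, symbols for replicates. The 3 Het libraries lie between 6.88 and 7.01 on the y axis, and KO replicate 3 lies lowest on both axes, at 1.77 and 5.99. Its value on the x axis includes Trib3 and Chac1 at 0 counts each.

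The libraries in which members moved together differed between genes. Of the 7204 other tested genes with a mean of at least 20 CPM, those whose log2 CPM was most like Hspa5 over the 6 libraries were Ube2e2 (Pearson r = 0.995), Pag1 (0.993) and Hnrnpr (0.991), and Hsp90b1 ranked 28 with 0.963. Most like Atf4 were Nudt2 (0.995), Invs (0.994) and Glis2 (0.993), while Asns ranked 6896 with -0.846. Xbp1 ranked 6958 in likeness to Hspa5 (-0.855) and 3469 in likeness to Atf4 (0.0564). With 6 libraries and so many genes such values are descriptions and no p is given; KO replicate 3 is the highest or lowest point for Atf4, Asns, Xbp1, Hspa5 and Hsp90b1 alike.

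The wider integrated stress pathway was followed through 49 listed symbols, of which 48 were in the files and 42 were tested. Of these, 0 passed higher and 0 passed lower, by edgeR, DESeq2 and limma-voom alike. By edgeR 0 had an unadjusted p under 0.05, and DESeq2 and limma-voom had 1 each, where 5.34%, 7.4% and 5.17% of all tested genes had one in these 3 fits. The median log2 fold change of the list was -0.11, with 24 of 42 below 0 (57.1%), beside 0.02 and 49.1% over all tested genes. The most abundant were genes of serine synthesis and tRNA charging. Psat1, the aminotransferase of serine synthesis, was at 2813 ± 270.6 CPM in the Het group and 2623 ± 164.2 CPM in the KO group (SD, n = 3; log2 fold change -0.10, 95% interval -0.40 to 0.20). Psph, the phosphatase of the last step, was at 627.4 ± 27.0 and 536.5 ± 100.1 CPM. Eprs, which charges glutamate and proline tRNA, was at 316.5 ± 52.2 and 349.3 ± 61.4 CPM, and Iars, which charges isoleucine tRNA, was at 193.0 ± 25.8 and 289.2 ± 149.0 CPM.

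No tested gene of this list was higher in all KO libraries, and 4 were lower in all of them, where 5.08% and 6.10% of all tested genes behaved so. These 4 were Psph, Ppp1r15b, the constitutive subunit of the eIF2 phosphatase, Ddit4, an inhibitor of mTOR signalling, and Fgf21, a hormone made under stress. Ppp1r15b was at 117.6 ± 26.4 CPM in the Het group and 66.2 ± 24.0 CPM in the KO group (SD, n = 3), and the estimate on the log2 scale was -0.83 (SE 0.389; edgeR adjusted p = 0.93), and Ddit4 at 113.0 ± 12.8 and 78.0 ± 11.6 CPM, with an estimate of -0.54 (SE 0.335; edgeR adjusted p = 0.938). Ppp1r15a, the stress-induced partner subunit GADD34, was at 12.8, 24.1 and 12.7 CPM in the Het group and at 19.1, 52.3 and 30.1 CPM in the KO group, with the opposite sign of Ppp1r15b (log2 fold change 1.03, SE 0.669). Ppp1r15b, Ddit4, Fgf21 and Ppp1r15a were singled out after their values were seen. Atf3 and Gdf15, both strongly stress-induced elsewhere, were listed at 0 in all 6 libraries.

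The list of ER folding genes held 38 symbols, 35 in the files and 33 tested, and 0 passed higher or lower by edgeR, DESeq2 or limma-voom. By edgeR and DESeq2 0 had an unadjusted p under 0.05, and limma-voom had 1, against the same shares over all genes (5.34%, 7.4% and 5.17%). The median log2 fold change was -0.03, with 18 of 33 below 0 (54.5%). Its most abundant genes had estimates above 0 and did not pass. Pdia3, a disulfide isomerase for glycoproteins, was at 919.3 ± 99.4 CPM in the Het group and 1040.0 ± 279.3 CPM in the KO group (SD, n = 3; 95% interval of the log2 fold change -0.27 to 0.63). Canx, the membrane lectin calnexin, was at 560.1 ± 34.1 and 608.2 ± 134.5 CPM, and its soluble relative Calr was at 481.9 ± 52.2 and 540.3 ± 80.8 CPM. Atf6, the sensor that becomes a transcription factor after cleavage, was at 481.2 ± 118.5 and 535.5 ± 67.5 CPM. Of the 33 tested genes, 3 had all KO libraries below the Het group and 0 had them all above it, where 6.10% and 5.08% of all tested genes behaved so. The 3 were Dnajc3, Dnajb11 and Syvn1, named after their values were seen. Dnajb11 is, like Dnajb9, a J-domain partner of Hspa5 in the ER lumen, and it was at 206.7 ± 12.0 and 149.2 ± 62.1 CPM, with 77.6 CPM in KO replicate 3. Dnajc3, a further J-domain protein, was at 156.4 ± 6.89 and 109.0 ± 27.6 CPM, and Syvn1, the ubiquitin ligase of ER-associated degradation, was at 98.8 ± 25.9 and 69.0 ± 12.5 CPM.

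**Figure D5:**
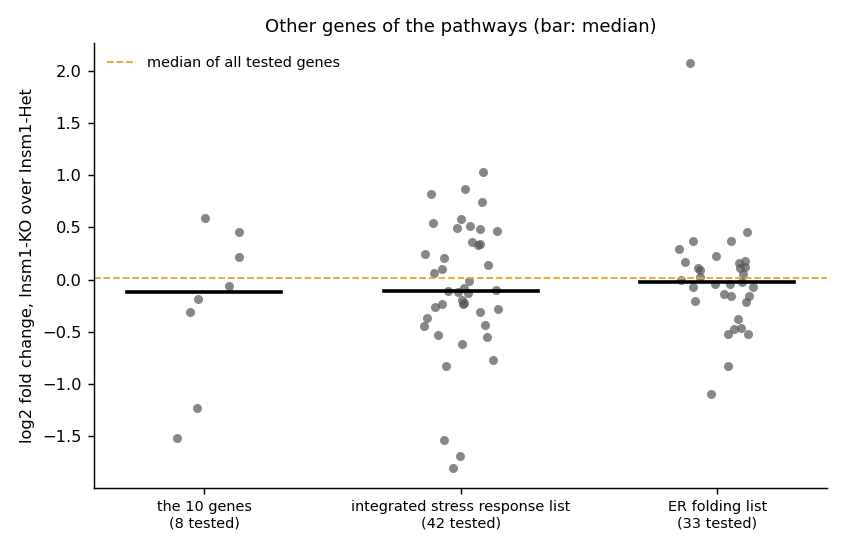
Log2 fold change of Insm1-KO over Insm1-Het (y axis) for the 8 tested genes, the 42 tested genes of the integrated stress response list and the 33 of the ER folding list; each point is a gene, black bars are medians and the dashed line is the median of all tested genes, 0.02. The medians of the lists are -0.11 and -0.03, and points lie on both sides of 0 in each.

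Markers of handling and of other cells were measured beside these genes. The 6 outer hair cell markers, Insm1 among them, summed to 528.2 to 652.7 CPM in the Het group and 472.2 to 480.8 CPM in the KO group, with 3 of 6 estimates above 0 and 3 below. Those below 0 were Fam40b (log2 fold change -0.48), Insm1 itself (-0.90) and Slc26a5 (-0.19), while Ikzf2 (1.12) and Bcl11b (0.10) were above 0 and Ocm was at 0 counts throughout the Het group and at 15, 22 and 33 counts in KO replicates 1, 2 and 3. The 4 inner hair cell markers, mainly Brip1, summed to 0.0937 to 7.75 CPM in the Het group and 92.0 to 431.2 CPM in the KO group. Their sum was thus higher in each KO library than in any Het library. Brip1 and Tbx2 each behaved so, as did 5.08% of all tested genes. Fgf8 was at 0 in the Het group and in KO replicate 2, and Slc17a8 was at 0 in Het replicate 2 and in KO replicates 2 and 3. All 7 tested immediate early genes, which respond to dissociation and sorting, had estimates above 0, with 0 passing and 0 at an unadjusted p under 0.05 by edgeR. Their list summed to 722.8 to 1127 CPM in the Het group and 1038 to 1226 CPM in the KO group, and Hspa1a was at 0 in all libraries. The 6 supporting cell markers summed to 1119 to 1410.0 CPM in the Het group and 1327 to 1882 CPM in the KO group, highest in KO replicate 3, with 4 of 6 above 0. The 6 neuron markers summed to 1141 to 1262 and 1198 to 1878 CPM, the 5 glial markers to 52.8 to 125.4 and 61.7 to 113.3 CPM, the 6 mesenchyme markers to 227.4 to 369.6 and 183.7 to 334.9 CPM, and the 5 immune markers to 87.4 to 120.9 and 39.6 to 136.0 CPM. Of the neuron, mesenchyme and immune sums, most came from Nefl, Nefm and Gata3, from Pdgfra and from Laptm5, where Gata3 is also known from hair cells, while Tubb3, Neurod1, Col1a2, Ptprc and C1qa stayed below the filter and Csf1r was at 0. The erythroid globin genes Hba-a1, Hba-a2 and Hbb-b1 were at 0 in all libraries. Alas2, the remaining erythroid marker in the files, lay below the filter, with 8, 0 and 4 counts in the Het group and 7, 38 and 24 in the KO group. In CPM it was higher in each KO library (0.747 to 4.96) than in any Het library (0 to 0.651), as were 5.08% of all tested genes. The part of these RNAs in the results was not tested.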

How the data were processed

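RNA depleted of ribosomal RNA from sorted outer hair cells was sequenced after amplification, per the labels' protocols. The authors deposited raw read counts for each gene symbol, with a file for every library. The tools were Trimmomatic, STAR and HTSeq on GRCm38 (mm10), as the submitters' processing notes list them; no version, annotation or strand setting is given in the sources used. The low-count filter was filterByExpr on genotype, with a minimum count of 10 and a minimum total of 15; 11714 of 23337 genes passed, and the others held 0.274% of counts. Libraries were scaled by TMM, and genotypes were compared with edgeR 4.0.16 (quasi-likelihood F test, no other term), adjusted by Benjamini-Hochberg over all tested genes and a threshold of 0.05. An SE was derived as the log2 fold change over the root of F, and 95% intervals follow from it. CPM uses the TMM-scaled totals, log2 CPM a prior count of 2, and RPKM the merged exon length of GENCODE M21. Counting intervals and floors (3 counts) cover counting error only: reads were amplified and carry no molecular identifiers. The fit was also run on simulated data. The outcome of that run is not reported here, so it does not show what size of change the fit could detect. Alternatives were DESeq2 1.42.0, limma-voom (limma 3.58.1), the newer form of the edgeR fit, other scalings and filters, the replicate number as a block and leaving out each library.

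The members and lists were chosen with earlier results of these data known. The genes named are all members, for each pathway list the 4 most abundant and any past the threshold, and the 3 genes most like Atf4 and Hspa5; any other was singled out on its values, as the text says. Replicates of a genotype were not duplicates of each other.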

Additional observations from a re-analysis of the deposited data

How the results depend on the processing

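The count of members and of pathway list genes past the adjusted threshold was 0 under every alternative run (0 to 0 with each library left out). Over all genes edgeR's count of 0 became 26 with DESeq2, 67 with no filter and 1 with the newer form of the fit, and stayed 0 with any 1 library left out (0 to 0). Replicate numbers are shared between genotypes, but same-numbered libraries did not deviate together (correlation of deviations 0.0101, 0.0073 and 0.0144 for numbers 1, 2 and 3, and Het replicates 1 and 2 correlated best with another number), so the numbers are not taken as pairs; the replicate block gave 1 gene, no member. Leaving out 1 library moved the log2 fold change of Ddit3 from -0.18 to 1.13 and that of Dnajb9 from -0.26 to 0.20, turning the sign without Het replicate 3 (Ddit3 -0.18, Dnajb9 0.20) and without KO replicate 2 (Dnajb9 0.014). The difference between arms, 0.24, ran from -0.080 without Het replicate 3 to 0.60 without Het replicate 2 and was -0.046 without Xbp1 and Herpud1 and -0.19 without Herpud1 alone, the latter chosen after seeing the data; the cause was not tested. Asns kept its sign in all 15 alternatives, with adjusted p from 0.355 to 1, and its unadjusted p exceeded 0.05 without Het replicate 1 (0.113) or Het replicate 2 (0.0547). Without KO replicate 2, Hspa5 and Herpud1 had an unadjusted p of 0.0466 and 0.0283 in edgeR's fit. Their adjusted p in that fit was 0.708 and 0.67, and 7% of all genes tested in it had an unadjusted p under 0.05. Trib3 and Chac1, with 0 to 112 and 0 to 33 counts a library, were tested only with no filter (edgeR adjusted p 0.456 and 0.755). Their unadjusted p in that fit was 0.0124 and 0.127, where 7.27% of all genes tested in it were under 0.05. For Trib3 that value rests mainly on the 112 counts of Het replicate 2. At these depths a count of 0 allows 0.237 to 0.391 CPM.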

Other observations

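The promoter letters shown for the members were also searched in the windows of the 8397 tested genes that RefSeq matched by symbol. Of these, 14 held the first form of the ER stress response element, with a median log2 fold change (KO over Het) of -0.34 and 10 below 0 (71.4%), beside a median of 0.02 and 48.7% below 0 over all matched genes; Hspa5 and Hsp90b1 are among the 14. The 6 genes with the second form of this element, Herpud1 among them, had a median of 0.08 with 3 below 0 (50.0%), and the 93 with the unfolded protein response core had a median of -0.11 with 52 below 0 (55.9%). The 216 genes with the Atf4 core had a median of 0.07 and 102 below 0 (47.2%). These are descriptions of sets defined by letters, with no test.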
